A study of Mus musculus with 6 samples.

Results

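Expressed genes that span 200 kb or more but less than 300 kb of the mouse genome were described in differentiated muscle cell cultures with and without a knockout of Sfpq. Members had that span in RefSeq annotation of GRCm38 and reached a TPM of 1 in 3 or more of the 6 libraries. TPM (transcripts per 1000000 transcripts) is a level scaled to the length of the transcript and to the total of the library. Of 444 genes with this span, 251 were expressed by that limit. The choice of members left out 16 of these 251 genes by name, among them Ttn, Neb, Ncam1, Cdh2, Phkb and 3 collagen genes. The remaining 235 genes are described here, out of 12461 genes tested in all. Another 193 genes of the same span, not left out by name, were below the TPM limit, and 49 of those were at 0 in every library. Of the 235 members, 232 code for proteins, 2 are long noncoding RNA genes and 1 is a pseudogene, and they lie on 20 chromosomes. The TPM limit was met in all 6 libraries by 209 members and in exactly 3 libraries by 8. The members were thus chosen by their measured TPM, and many of those named below were chosen by the direction of the difference between groups.

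At the lower edge of the span the shortest members were Pcbp3 at 200.3 kb, with 3.91 ± 1.599 TPM in SFPQ_KO and 6.06 ± 1.03 TPM in Cont, and Pbx3 at 200.6 kb, with 9.58 ± 1.76 TPM in SFPQ_KO and 8.14 ± 2.99 TPM in Cont (SD, n = 3 each). Atp9b at 199.9 kb lay just outside, with 17.0 ± 1.29 TPM in SFPQ_KO and 15.0 ± 1.22 TPM in Cont. The longest members were Akap13 at 299.1 kb, with 22.6 ± 4.55 TPM in SFPQ_KO and 23.8 ± 6.42 TPM in Cont, and AW554918 at 298.6 kb, with 1.30 ± 0.171 TPM in SFPQ_KO and 1.51 ± 0.251 TPM in Cont. Zfp423 at 300.2 kb lay just outside, with 1.92 ± 0.211 TPM in SFPQ_KO and 3.54 ± 0.953 TPM in Cont. At the TPM limit the nearest members inside were Glis1, with 1.41 ± 0.455 TPM in SFPQ_KO and 0.729 ± 0.262 TPM in Cont, and Adamtsl3, with 0.754 ± 0.232 TPM in SFPQ_KO and 1.06 ± 0.764 TPM in Cont. The nearest genes outside were Nxpe4, with 0.593 ± 0.335 TPM in SFPQ_KO and 1.66 ± 0.606 TPM in Cont, and Dock8, with 1.07 ± 0.677 TPM in SFPQ_KO and 0.764 ± 0.116 TPM in Cont.

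The cultures were primary myoblasts, muscle precursor cells of male mice aged 1 month, taken from their skeletal muscle and kept for 4 days in 2% horse serum to differentiate. The SFPQ_KO group (3 libraries) came from mice in which Sfpq is knocked out in skeletal muscle, written SfpqSM-KO in the labels, and the Cont group (3 libraries) came from control mice. The sources used here give neither the promoter that drives the deletion nor the genotype of the control mice. Polyadenylated RNA was sequenced on an Ion Proton, and both groups went through the same expansion in serum with basic fibroblast growth factor and the same differentiation.

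Sfpq binds RNA and DNA in the nucleus, pairs with Nono and Pspc1, takes part in splicing and transcription, and helps to build paraspeckles. In mouse brain and muscle it is known to be needed for full transcription of many very long genes, whose primary transcripts consist almost wholly of intron. Genes of this length in muscle cells serve many roles, from enzymes of mitochondria to scaffolds of the cell cortex.

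Sfpq itself had 18.3, 19.3 and 14.1 TPM in SFPQ_KO libraries and 48.6, 60.5 and 49.9 TPM in Cont libraries. Every SFPQ_KO library lay below every Cont library, with a difference of −1.57 on the log2(TPM + 1) scale (limma adjusted p = 0.0531), and transcript remained in all 3 knockout libraries. Muscle transcripts dominated each library: 7 skeletal muscle markers, led by Acta1, summed to between 55517 and 56923 TPM in SFPQ_KO and between 48698 and 50441 TPM in Cont, without overlap. The sum separated only with Acta1, the actin of skeletal muscle fibres, counted in. The sums of the other 6 markers overlapped, at 22426 to 27322 TPM in SFPQ_KO and 23047 to 27625 TPM in Cont. Among these 6 only Des was higher in every SFPQ_KO library, at 5744 to 7131 TPM against 5082 to 5575 TPM in Cont. Pax7 and Myf5, markers of satellite cells and myoblasts, summed to between 28.6 and 52.4 TPM in SFPQ_KO and between 52.7 and 55.8 TPM in Cont. The sums nearly met, and each of the 2 genes overlapped between groups. The 5 fibroblast markers summed to 39.7 to 50.7 TPM in SFPQ_KO and 46.9 to 62.4 TPM in Cont, nearly all of it Pdpn, and Lum was at 0 in 5 of 6 libraries. The 4 endothelial, 3 Schwann cell and 3 adipocyte markers each summed to less than 1 TPM in every library. The 5 macrophage markers summed to 1.15 to 2.13 TPM in SFPQ_KO and 1.15 to 2.05 TPM in Cont, with Adgre1 and Ptprc at 0 in all 6 libraries. In such bulk cultures fewer cells of a type and less RNA per cell cannot be told apart. The part of these marker differences in the results on members was not tested.

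The libraries did not separate cleanly by genotype. SFPQ_KO 1 and Cont 2 departed from their group means together over all tested genes (correlation of deviations 0.41 over 12461 genes). The log2 TPM of SFPQ_KO 1 correlated at 0.987 with SFPQ_KO 3, at 0.984 with Cont 2 and at 0.981 with SFPQ_KO 2. SFPQ_KO 2 was nearer to a Cont library than to its own group, at 0.986 with Cont 3 and 0.983 with SFPQ_KO 3. The deviations of SFPQ_KO 2 and Cont 3 correlated at 0.20, so the mixing was not limited to SFPQ_KO 1 and Cont 2. Cont 2 had the highest TPM of all 6 libraries for 112 of 235 members, and its median member lay 0.20 above the gene's own mean on the log2 scale. The corresponding medians were −0.01, −0.11 and −0.11 in SFPQ_KO 1 to 3, and −0.03 and 0.04 in Cont 1 and Cont 3. The 235 members made up 0.478%, 0.441% and 0.439% of all TPM in SFPQ_KO libraries and 0.452%, 0.550% and 0.493% in Cont libraries. The part of this library in the results was not tested, so values with and without it are given below.

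**Figure D1:**
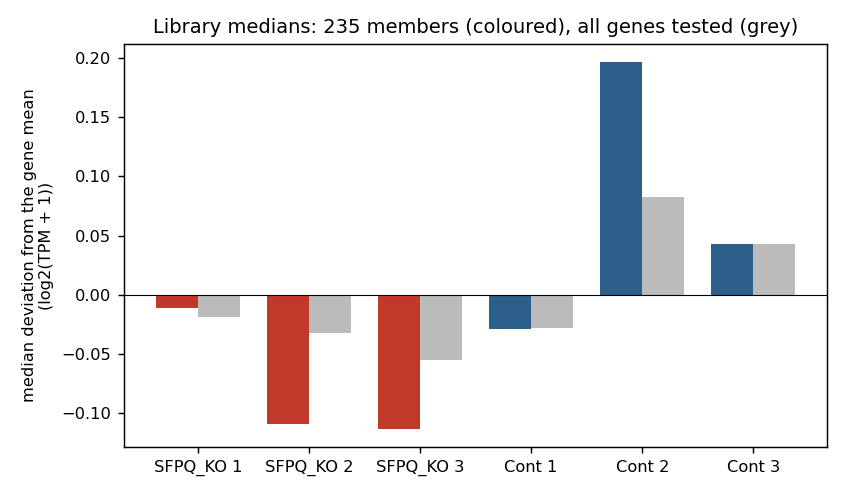
Median deviation of the 235 members (red bars for SFPQ_KO, blue for Cont) and of all 12461 genes tested (grey) from each gene's mean over the 6 libraries, on the log2(TPM + 1) scale. Cont 2 stands at 0.20 for the members and 0.08 for all genes, while SFPQ_KO 2 and SFPQ_KO 3 are both at −0.11 for the members.

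Most members were a little lower in SFPQ_KO cultures, and few differed by much. Of the 235 members, 174 (74.0%) had a negative log2 difference, against 8038 (64.5%) of all genes tested. The median difference was −0.14 for members and −0.07 for all 12461 genes. With Cont 2 left out both medians became −0.04. With SFPQ_KO 1 and Cont 2 both left out they were −0.09 for members and −0.05 for all genes. No member passed the limma test at an adjusted p of 0.05 in either direction, nor did any of the genes tested (0.0% lower and 0.0% higher), and limma without its trend gave 0 members as well. The smallest adjusted p among members was 0.0938, for Mlip. At an unadjusted p under 0.05, 49 members (20.9%) were lower and 3 (1.28%) higher, against backgrounds of 9.62% and 2.68% over all genes tested.

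A second description asked whether the groups overlap. In 58 members (24.7%) every SFPQ_KO library lay below every Cont library, which held for 15.3% of all genes tested. In 3 members (1.28%) every SFPQ_KO library lay above every Cont library, against 4.27% of all genes. In the other 174 members (74.0%) the groups overlapped. These 58, 3 and 174 genes are called the lower, higher and overlapping members below. The classes were drawn from the same contrast that they describe, so nothing is tested with them, and a member in the overlapping class is not shown to be unaffected. Roles were assigned to all 235 members by gene name, and each of 10 roles also had a narrower list of genes, both drawn up with earlier results of these data known. The split into classes also moved with the scaling. After median-of-ratios scaling 47 members were lower and 10 higher, against 9.11% and 9.33% of all genes. The median difference moved to −0.07 for members and −0.00 for all genes. After quantile normalization 41 were lower and 9 higher, against 8.58% and 8.71%, with a median of −0.05 for members and 0.00 for all genes. The 47 and 41 genes were all among the original 58. With a library left out, 18.1% to 25.2% of all genes were lower without overlap. Counts of lower members by role in each setting are read only beside these shares. For the median of each role, the range over leaving out each library in turn is given below with the libraries at its ends. It is also given for overlapping members named by their level or by a role list, and for only some of the other overlapping members.

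The counts differed little along the range of spans. Lower members numbered 35 of 143 (24.5%) at 200 to 250 kb and 23 of 92 (25%) at 250 to 300 kb, with a median difference of −0.14 in each. Across the 235 genes the log2 difference and the span had a Pearson r of −0.033 and a Spearman coefficient of −0.021, with all genes measured in the same libraries. For reference, 14.04% of the 10539 tested genes under 100 kb and 21.9% of the 931 genes of 100 to 200 kb were lower without overlap. The shares were 43.2% of the 148 genes of 300 to 500 kb and 41.2% of the 85 genes of 500 kb or more. The 16 genes left out by name had a median of −0.41 and 8 of them were lower without overlap, so counting them would raise the total to 66 of 251.

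**Figure D2:**
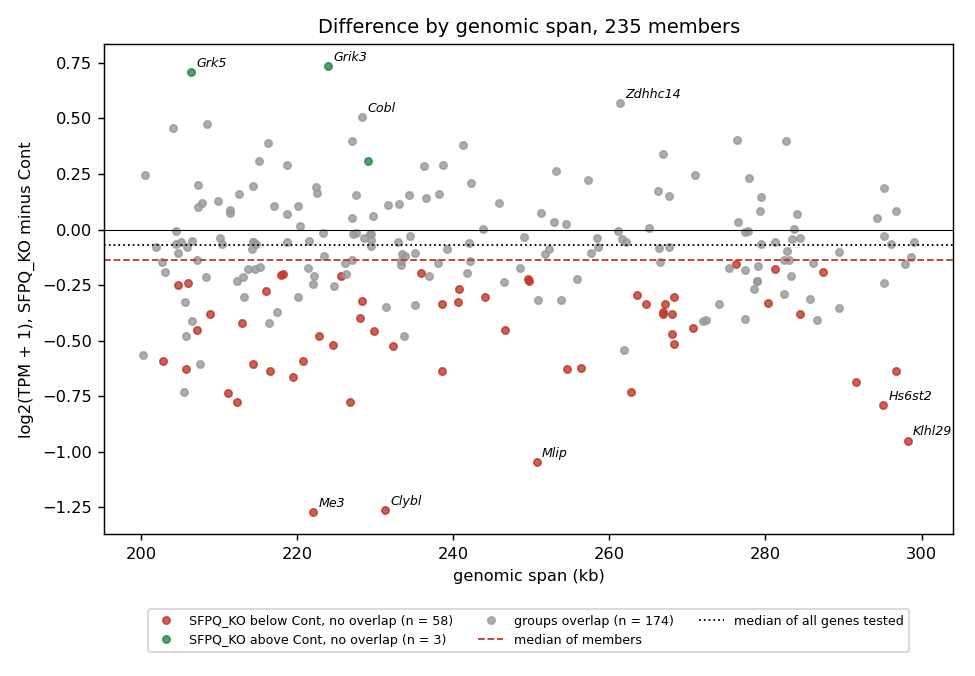
Log2(TPM + 1) difference, SFPQ_KO minus Cont, of each member against its genomic span in kb, with lower members in red, higher members in green and overlapping members in grey. The points spread evenly around the members' median of −0.14 (dashed line) from 200 to 300 kb, and Me3, Clybl and Mlip are the only members below −1.

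The deposited values hold 1 transcript accession for 234 of the 235 members, and that transcript can be shorter than the gene. For 221 members it was found in GENCODE annotation, where 190 of these transcripts span 200 to 300 kb, 22 span 100 to 200 kb and 9 less than 100 kb. Lower members numbered 49 of the 190 (median −0.15), 5 of the 22 (median −0.12) and 2 of the 9 (median 0.08). Those 2 were Runx1, a transcription factor, and Ripor2. The other 7 were Arhgef3, Gm4724, Phldb2, Plekhg1, Rcan2, Tjp1 and Tmcc3. By this shorter measure the log2 difference and the span had a Pearson r of −0.10 and a Spearman coefficient of −0.074 over 221 genes.

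Enzymes and mitochondrial proteins held the members with the largest differences on the log2(TPM + 1) scale. Of 18 members in this role, 9 were lower without overlap and none higher, with a median difference of −0.36. The median stayed at −0.29 under both other scalings, with 8 lower members each, and 1 higher after median-of-ratios scaling. Leaving out SFPQ_KO 1 or Cont 2 also gave 1 higher member. The metabolic median ran from −0.44 without Cont 2 to −0.31 without Cont 1, with 9 to 11 lower members. On the narrower list 6 of 10 members were lower, with a median of −0.50.

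Me3 (chr7:89632284-89854359, plus strand) encodes the mitochondrial NADP-dependent malic enzyme, which turns malate into pyruvate. It had 10.7, 11.5 and 6.85 TPM in SFPQ_KO libraries and 24.2, 25.7 and 23.2 TPM in Cont libraries. All 3 SFPQ_KO libraries were far below the Cont libraries, which were nearly equal. The mean was 2.51-fold lower in SFPQ_KO, a log2(TPM + 1) difference of −1.27 (SE 0.18). Clybl (chr14:122170994-122402234, plus strand), a mitochondrial lyase that splits citramalyl-CoA, had 13.2, 37.0 and 24.5 TPM in SFPQ_KO libraries and 65.5, 41.0 and 67.4 TPM in Cont libraries. Its libraries were far more scattered, with SFPQ_KO 1 lowest and SFPQ_KO 2 close to Cont 2. The difference was −1.26 (SE 0.37), with a larger standard error than that of Me3. With a pseudocount of 0.1 in place of 1, which weighs low genes more, the order changed, and the difference was −1.42 for Klhl29, −1.35 for Me3, −1.32 for Epb41l4a, −1.30 for Clybl and −1.06 for Mlip.

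Me3, Clybl and Mlip are the 3 members with the largest differences on the log2(TPM + 1) scale, and App is the most abundant overlapping member. Their start regions are printed because they show how unlike these genes are at an annotated start. Each is 250 bases before to 50 bases after a start annotated in RefSeq, build GRCm38.p6, with every CG dinucleotide in capitals, read in the direction of the gene. In all 4 genes this start lies inside the outer boundary of the annotated span, and whether the counted transcript begins there was not tested. The regions are chr7:89632568-89632867 (plus strand) for Me3, chr14:122181444-122181743 (plus strand) for Clybl, chr9:77347821-77348120 (minus strand) for Mlip and chr16:85173658-85173957 (minus strand) for App.
Me3: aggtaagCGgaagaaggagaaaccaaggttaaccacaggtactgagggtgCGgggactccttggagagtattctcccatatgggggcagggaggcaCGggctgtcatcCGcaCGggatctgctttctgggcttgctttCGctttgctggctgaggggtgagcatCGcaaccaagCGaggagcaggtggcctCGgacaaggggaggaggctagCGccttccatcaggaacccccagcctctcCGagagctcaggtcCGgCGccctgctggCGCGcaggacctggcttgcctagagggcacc
Clybl: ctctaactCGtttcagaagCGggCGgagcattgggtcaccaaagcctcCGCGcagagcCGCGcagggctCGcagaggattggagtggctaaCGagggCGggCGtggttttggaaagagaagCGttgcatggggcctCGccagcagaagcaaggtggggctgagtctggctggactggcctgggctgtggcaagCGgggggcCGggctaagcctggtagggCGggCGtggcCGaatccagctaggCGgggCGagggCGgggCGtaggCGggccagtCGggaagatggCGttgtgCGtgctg
Mlip: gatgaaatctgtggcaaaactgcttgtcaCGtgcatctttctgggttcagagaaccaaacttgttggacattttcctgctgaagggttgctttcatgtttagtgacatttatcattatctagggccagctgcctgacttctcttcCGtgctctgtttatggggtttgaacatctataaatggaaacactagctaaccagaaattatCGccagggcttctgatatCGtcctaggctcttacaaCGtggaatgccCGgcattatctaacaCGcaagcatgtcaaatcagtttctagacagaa
App: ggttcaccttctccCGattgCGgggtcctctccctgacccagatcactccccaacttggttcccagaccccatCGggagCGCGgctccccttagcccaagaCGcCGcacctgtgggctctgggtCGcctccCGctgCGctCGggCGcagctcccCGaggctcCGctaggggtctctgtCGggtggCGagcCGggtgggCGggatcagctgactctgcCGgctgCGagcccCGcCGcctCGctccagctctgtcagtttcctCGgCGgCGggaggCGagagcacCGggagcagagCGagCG
The Me3 window holds 15 CG dinucleotides and Clybl 26, App has 30 and Mlip 7.

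Over the 174 members with such a window in the RefSeq table, 31 (17.8%) held CAGCTG, an E-box of the kind bound by muscle regulatory factors. The same letters occurred in 15.1% of 9543 windows of tested genes and 16.1% of all 27025 windows. TATAAA was found in 5.17% of members, 7.32% of tested genes and 14.1% of all windows, and GGGCGG in 66.7%, 65.6% and 35.9%. Both strands were searched, CAGCTG reads the same on both, and neighbouring matches of different motifs may share bases. Lower members held CAGCTG in 10 of 41 windows (24.4%) and the other members in 21 of 133 (15.8%). Of the windows printed, Mlip has both CAGCTG and TATAAA, App has CAGCTG and GGGCGG, Clybl has GGGCGG and Me3 has none of these. A match is a description of the letters only. The median window had 21 CG dinucleotides and 63.7% GC in lower members, against 25 and 65.3% in the rest.

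Chchd3 (also called Mic19, chr6:32792207-33060273, minus strand), a subunit of the complex that shapes mitochondrial cristae, was the most abundant lower member. It had 191, 208 and 226 TPM in SFPQ_KO libraries and 266, 286 and 262 TPM in Cont libraries. The highest SFPQ_KO library was below the lowest Cont library by a small margin, and the difference was −0.38 (SE 0.09). Its relative Chchd6, in the same complex, had a difference of 0.16 with overlapping groups. Pdss2, a subunit of the synthase that makes the side chain of coenzyme Q, had 15.2, 20.3 and 19.4 TPM in SFPQ_KO libraries and 31.2, 20.6 and 24.9 TPM in Cont libraries. All 3 SFPQ_KO libraries were lower, but SFPQ_KO 2 and Cont 2 nearly met. The difference was −0.45 (SE 0.18), from −0.59 without Cont 2 to −0.30 without Cont 1. Chchd6 and Pdss2 were picked after their values were seen.

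Some sugar and lipid enzymes of the secretory pathway were also in the lower class. Others overlapped between groups: Mgat5 had a difference of −0.04 and Chst11 of 0.07, both picked after their values were seen. The heparan sulfate enzymes Ext1 and Hs6st2 are described with matrix proteins below. St3gal3, a Golgi sialyltransferase (chr4:117932152-118134972, minus strand), had 51.7, 59.1 and 49.9 TPM in SFPQ_KO libraries and 92.7, 74.8 and 77.0 TPM in Cont libraries. Fut8, which adds the core fucose to N-glycans (chr12:77237430-77475998, plus strand), had 17.1, 11.3 and 14.5 TPM in SFPQ_KO libraries and 18.3, 23.1 and 26.7 TPM in Cont libraries. The differences were −0.59 (SE 0.11) for St3gal3 and −0.64 (SE 0.19) for Fut8, and in Fut8 the highest SFPQ_KO and lowest Cont libraries nearly met. Tmtc1, a mannosyltransferase of the endoplasmic reticulum, had 3.31, 4.63 and 3.18 TPM in SFPQ_KO libraries and 6.78, 6.25 and 8.02 TPM in Cont libraries, a difference of −0.78 (SE 0.16). Sgms1, a Golgi sphingomyelin synthase, had 23.5, 20.1 and 23.4 TPM in SFPQ_KO libraries and 29.4, 27.6 and 28.3 TPM in Cont libraries, a difference of −0.34 (SE 0.09). In both genes the 3 SFPQ_KO libraries formed the lower end. The members of this role that overlapped ranged in difference from −0.41 for Acaca, the first enzyme of fatty acid synthesis, to 0.26 for the ceramide synthase Cers6. With a library left out, Acaca ran from −0.55 without SFPQ_KO 2 to −0.30 without Cont 1. Cers6 ran from −0.07 without Cont 1 to 0.58 without Cont 2.

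**Figure D3:**
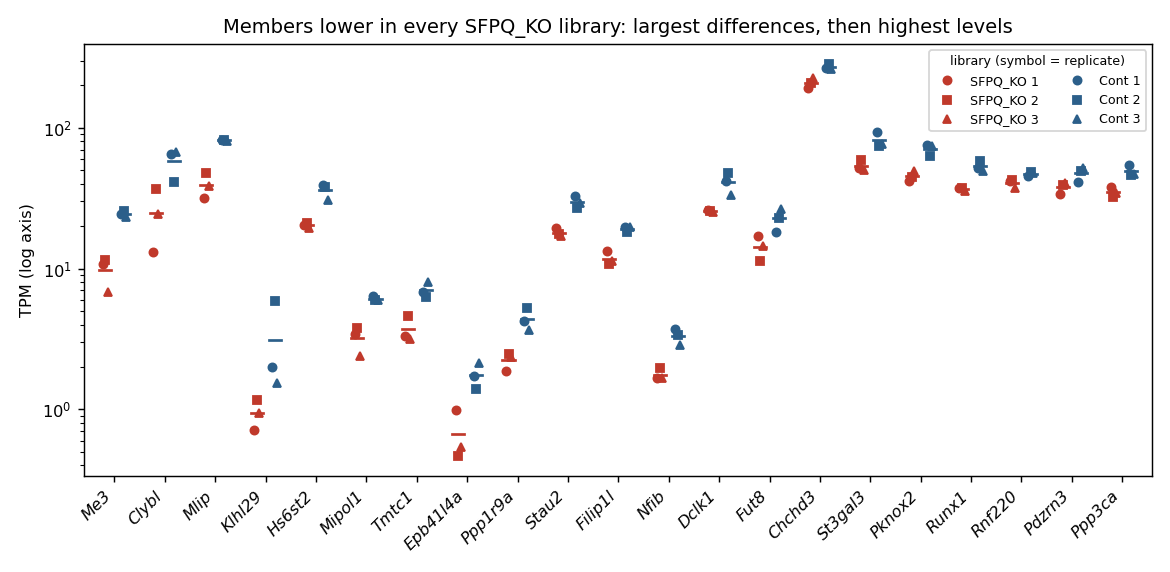
TPM on a log axis for the 14 lower members with the largest differences and then the 7 further lower members with the highest TPM, with SFPQ_KO libraries (red) left of Cont libraries (blue), a symbol for each replicate and a line at each group mean. Me3 and Mlip show SFPQ_KO libraries far below tightly grouped Cont libraries, and Chchd3 the highest level of the genes shown.

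Of the 41 members that belong to the cytoskeleton, adhesion or the sarcomere, 6 were lower, 1 higher and 34 overlapping, with a median of −0.10. That median became −0.03 under both other scalings. The cytoskeletal median ran from −0.15 without Cont 1 to 0.02 without Cont 2, with 6 to 10 lower members. The narrower list had 2 of 23 members lower, with a median of 0.02. Mlip (chr9:77102084-77352782, minus strand), a muscle-enriched protein that interacts with lamins A and C, had 31.8, 47.4 and 38.9 TPM in SFPQ_KO libraries and 81.9, 81.4 and 80.8 TPM in Cont libraries. The Cont libraries were almost equal and all SFPQ_KO libraries were far below them. Mlip had the smallest adjusted p of any member, with a mean 2.07-fold lower in SFPQ_KO and a log2(TPM + 1) difference of −1.05 (SE 0.14).

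Filip1l (chr16:57353277-57572804, plus strand), a relative of the filamin-binding protein Filip1, had 13.2, 10.9 and 11.3 TPM in SFPQ_KO libraries and 19.8, 18.1 and 19.8 TPM in Cont libraries, a difference of −0.66 (SE 0.11). It overlaps Cmss1, and reads of overlapping genes cannot be assigned to strands here. Filip1 itself, also a member and picked after its value was seen, had a difference of 0.12 with overlapping groups. Ppp1r9a (chr6:4902872-5165661, plus strand), the actin-binding scaffold neurabin-1, had 1.86, 2.49 and 2.34 TPM in SFPQ_KO libraries and 4.22, 5.26 and 3.68 TPM in Cont libraries, a difference of −0.73 (SE 0.16). Epb41l4a (chr18:33796327-34007484, minus strand), a FERM-domain protein of the band 4.1 family, had 0.988, 0.465 and 0.539 TPM in SFPQ_KO libraries and 1.73, 1.40 and 2.15 TPM in Cont libraries, a difference of −0.73 (SE 0.18). Both were at a low level, and Epb41l4a was the 1 member that met the TPM limit in all Cont libraries and in no SFPQ_KO library, so it entered through Cont alone.

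The most abundant members of this role were scaffolds of adhesions and membranes, and their groups overlapped. Tacc2, a coiled-coil protein of centrosomes and microtubule ends, had 125, 85.3 and 91.9 TPM in SFPQ_KO libraries and 101, 109 and 102 TPM in Cont libraries. Tns1, the focal adhesion protein tensin-1, had 139.6, 79.8 and 92.2 TPM in SFPQ_KO libraries and 81.2, 114 and 73.9 TPM in Cont libraries. Sntb1, beta-1 syntrophin of the dystrophin complex, had 91.8, 101 and 92.4 TPM in SFPQ_KO libraries and 59.1, 101 and 85.8 TPM in Cont libraries. In Tacc2 and Tns1 the top library was SFPQ_KO 1, and in Sntb1 the SFPQ_KO libraries lay near the top of the Cont range. Lmo7, a LIM-domain protein of cell junctions, had 96.6, 74.0 and 99.0 TPM in SFPQ_KO libraries and 80.1, 121 and 91.4 TPM in Cont libraries. Sh3pxd2a, the podosome scaffold Tks5, had 102, 86.7 and 79.8 TPM in SFPQ_KO libraries and 73.1, 112 and 87.2 TPM in Cont libraries. In both the highest value came from Cont 2 and the mean difference was small (−0.10 and −0.00). Lmo7 ranged from −0.23 without Cont 1 to 0.06 without Cont 2 and Sh3pxd2a ranged from −0.15 without Cont 1 to 0.16 without Cont 2. Cobl, an actin nucleator, had 120.3, 84.3 and 61.7 TPM in SFPQ_KO libraries and 57.6, 70.5 and 53.0 TPM in Cont libraries. Its difference of 0.51 (SE 0.24) rested largely on SFPQ_KO 1 and was 0.26 without that library and 0.74 without SFPQ_KO 3. Tns1 overlaps Rufy4. The difference was −0.07 (SE 0.15) for Tacc2, 0.19 (SE 0.24) for Tns1 and 0.24 (SE 0.19) for Sntb1. Tacc2 ranged from −0.23 without SFPQ_KO 1 to 0.04 without SFPQ_KO 2. Tns1 ranged from −0.04 without SFPQ_KO 1 to 0.38 without Cont 2 and Sntb1 ranged from 0.03 without Cont 1 to 0.41 without Cont 2.

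Ttll5 (chr12:85824693-86053760, plus strand), a tubulin polyglutamylase, was 1 of the 3 higher members. It had 15.6, 12.8 and 12.8 TPM in SFPQ_KO libraries and 9.32, 12.5 and 10.9 TPM in Cont libraries. Every SFPQ_KO library was above every Cont library, SFPQ_KO 2 and 3 only just, and the difference was 0.31 (SE 0.14). Ttll5 overlaps Erg28.

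**Figure D4:**
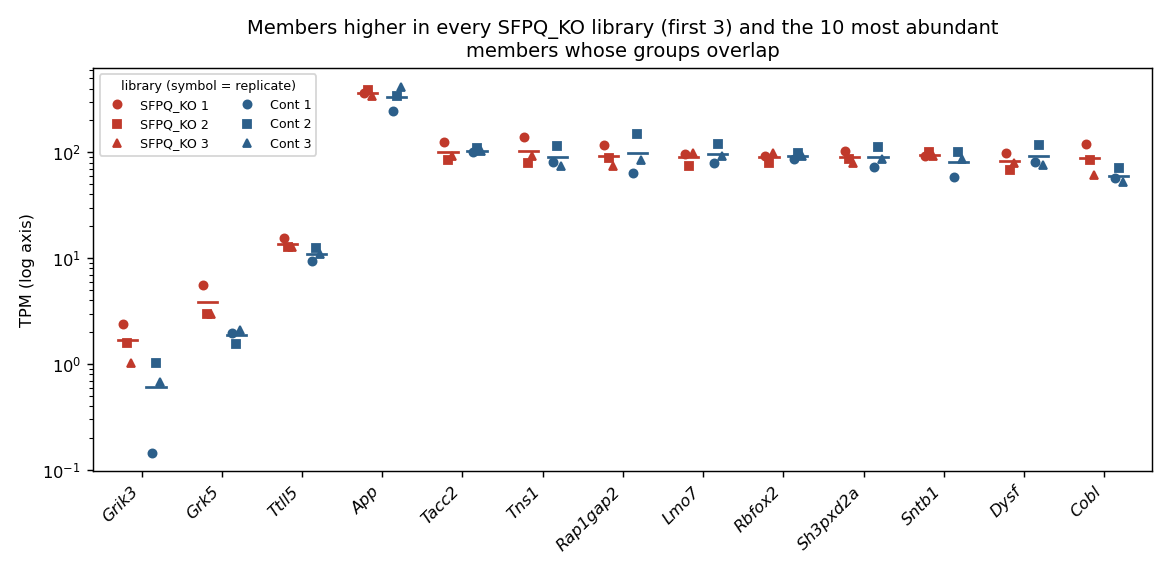
TPM on a log axis for the 3 higher members (Grik3, Grk5 and Ttll5) and the 10 overlapping members with the highest TPM, with SFPQ_KO libraries (red) left of Cont libraries (blue) and a line at each group mean. App lies above all others in both groups, and the groups of each of the last 10 genes overlap.

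Transcription and chromatin regulators held 10 lower members of 29, none higher, with a median of −0.19. Other scalings gave 8 and 7 lower members, 1 higher member each, and medians of −0.14 and −0.09. The transcription median ran from −0.21 without Cont 1 to −0.14 without Cont 2, with 10 to 14 lower members. The narrower list gave 7 of 17 members lower, with a median of −0.20. Runx1 (chr16:92601466-92826074, minus strand), a Runt-domain factor whose level rises in denervated muscle, had 37.1, 37.4 and 35.7 TPM in SFPQ_KO libraries and 52.1, 58.6 and 49.0 TPM in Cont libraries. Pknox2 (chr9:36890979-37147342, minus strand), a homeodomain factor that pairs with Pbx proteins, had 42.1, 44.9 and 49.2 TPM in SFPQ_KO libraries and 75.1, 62.8 and 73.7 TPM in Cont libraries. In each gene the SFPQ_KO libraries were close together and below all Cont libraries, with differences of −0.52 (SE 0.09) for Runx1 and −0.62 (SE 0.10) for Pknox2. Nfib (chr4:82290173-82506751, minus strand), a nuclear factor I protein, had 1.66, 1.97 and 1.67 TPM in SFPQ_KO libraries and 3.72, 3.36 and 2.87 TPM in Cont libraries, a difference of −0.64 (SE 0.13). Mllt3, a reader of acylated histones in the super elongation complex, had 20.2, 16.4 and 19.2 TPM in SFPQ_KO libraries and 23.9, 21.3 and 23.7 TPM in Cont libraries, a difference of −0.29 (SE 0.11). The groups of Nfib stood apart at a low level, and those of Mllt3 lay close together.

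The histone deacetylases Hdac8 and Hdac4 were also lower, with differences of −0.59 and −0.38, as was the nuclear receptor coactivator Ncoa1 at −0.46. Its relative Ncoa2 had −0.11 with overlapping groups, from −0.20 without Cont 1 to 0.06 without Cont 2. These 4 genes were picked after their values were seen. Tcf12, an E protein that pairs with MyoD, had 31.7, 33.7 and 32.1 TPM in SFPQ_KO libraries and 27.8, 43.3 and 33.6 TPM in Cont libraries. Its groups overlapped fully, with a difference of −0.08 (SE 0.16). Tcf12 ranged from −0.23 without Cont 1 to 0.09 without Cont 2. Trp63, the p53 relative p63, had 26.2, 29.7 and 23.6 TPM in SFPQ_KO libraries and 25.5, 38.7 and 29.4 TPM in Cont libraries, a difference of −0.21 (SE 0.17). Trp63 ranged from −0.34 without Cont 1 to −0.05 without Cont 2. Among members of this role Glis1 had the most positive difference, 0.47, at about 1 TPM.

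RNA-binding and RNA-processing proteins held 6 lower members of 14, none higher, with a median of −0.19. The scalings gave 4 lower members each, with medians of −0.13 and −0.12. The RNA-binding median ran from −0.27 without SFPQ_KO 1 to −0.16 without Cont 2, with 6 to 8 lower members. Of the narrower list, 4 of 8 were lower, with a median of −0.17. Stau2 (chr1:16228803-16520332, minus strand), the double-stranded RNA-binding protein Staufen2 that carries mRNAs in neurons, had 19.5, 17.5 and 17.0 TPM in SFPQ_KO libraries and 32.7, 26.8 and 29.4 TPM in Cont libraries. The SFPQ_KO libraries were close together and lay well below the Cont libraries, with a difference of −0.69 (SE 0.11). Rbm20, the splicing factor that sets titin isoforms in heart, was lower at −0.24. It had 28.0, 30.8 and 26.5 TPM in SFPQ_KO libraries and 32.8, 37.0 and 31.5 TPM in Cont libraries, and was picked after its values were seen.

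The most abundant RNA-binding members overlapped between groups. Rbfox2, a splicing factor of muscle and many other tissues, had 91.8, 79.6 and 98.0 TPM in SFPQ_KO libraries and 86.9, 98.6 and 92.2 TPM in Cont libraries. Eif4g3, a scaffold of translation initiation, had 70.5, 68.2 and 69.8 TPM in SFPQ_KO libraries and 87.9, 67.9 and 80.4 TPM in Cont libraries. Rbms1, a single-stranded nucleic acid binder, had 50.9, 42.0 and 36.5 TPM in SFPQ_KO libraries and 47.5, 51.0 and 47.1 TPM in Cont libraries. No library set stood apart in these genes, and the differences were −0.05 (SE 0.10) for Rbfox2, −0.17 (SE 0.11) for Eif4g3 and −0.18 (SE 0.13) for Rbms1. Rbfox2 ranged from −0.11 without SFPQ_KO 3 to 0.04 without SFPQ_KO 2. Eif4g3 ranged from −0.27 without Cont 2 to −0.09 without Cont 1 and Rbms1 ranged from −0.30 without SFPQ_KO 1 to −0.07 without SFPQ_KO 3.

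Of 13 members in ubiquitination, autophagy and the lysosome, 6 were lower and none higher, with a median of −0.19. Other scalings left 4 lower, with 2 higher, and medians of −0.12 and −0.13. The ubiquitin and autophagy median ran from −0.24 without SFPQ_KO 2 to −0.16 without SFPQ_KO 3, with 6 to 8 lower members. The narrower list had 4 lower of 9, with a median of −0.21. Klhl29 (chr12:5077465-5375682, minus strand), a kelch-like protein, had 0.718, 1.17 and 0.939 TPM in SFPQ_KO libraries and 2.02, 5.84 and 1.53 TPM in Cont libraries. Cont 2 was far above the other Cont libraries, and the difference of −0.95 (SE 0.37) became −0.52 without it. In SFPQ_KO only SFPQ_KO 2 met the TPM limit, so Klhl29 was a member only through its Cont values. Pdzrn3 (chr6:101149607-101377897, minus strand), a ubiquitin ligase of differentiating myoblasts and the neuromuscular junction, had 33.9, 39.3 and 40.5 TPM in SFPQ_KO libraries and 41.6, 49.5 and 52.1 TPM in Cont libraries. Rnf220 (chr4:117271463-117497052, minus strand), another ubiquitin ligase, had 41.7, 42.8 and 37.7 TPM in SFPQ_KO libraries and 45.3, 48.7 and 47.6 TPM in Cont libraries. The gap between groups was narrow in both, with differences of −0.32 (SE 0.12) for Pdzrn3 and −0.21 (SE 0.09) for Rnf220. Wdr7, a partner of the proton pump of acidic vesicles, had 13.5, 13.2 and 14.1 TPM in SFPQ_KO libraries and 16.1, 15.6 and 14.8 TPM in Cont libraries, a difference of −0.18 (SE 0.09), which was −0.11 after median-of-ratios scaling and −0.09 after quantile normalization. Uvrag, a regulator of autophagosome maturation, had 18.8, 18.8 and 18.8 TPM in SFPQ_KO libraries and 17.1, 19.1 and 19.4 TPM in Cont libraries and overlapping groups, with a difference of 0.02 (SE 0.09). Uvrag ranged from −0.03 without Cont 1 to 0.06 without Cont 3. Among the conjugation factors of autophagy Atg7 and Atg10 had differences of −0.37 and −0.35 with overlapping groups, a pair picked after their values were seen.

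Signalling kinases, phosphatases and their partners held 8 lower and 1 higher of 26 members, with a median of −0.03. That median turned to 0.03 and 0.05 under the other scalings. The signalling median ran from −0.13 without Cont 1 to −0.01 without Cont 2, with 8 to 12 lower members. Without SFPQ_KO 1 it was −0.10 with 12 lower members, and without SFPQ_KO 1 and Cont 2 it was −0.14, again with 12. The shares of lower genes over all genes were then 21.4% and 29.6%. On the narrower list 4 of 12 were lower, with a median of −0.12. Ppp3ca (chr3:136669714-136937727, plus strand), a catalytic subunit of the calcium-activated phosphatase calcineurin, had 37.8, 32.5 and 34.7 TPM in SFPQ_KO libraries and 54.4, 45.9 and 46.6 TPM in Cont libraries. Dclk1 (chr3:55242303-55539068, plus strand), a doublecortin-like kinase of microtubules, had 26.1, 25.6 and 25.4 TPM in SFPQ_KO libraries and 42.1, 47.8 and 33.2 TPM in Cont libraries. The SFPQ_KO libraries of Dclk1 were nearly equal and below a wide Cont range, and the differences were −0.47 (SE 0.10) for Ppp3ca and −0.64 (SE 0.14) for Dclk1. Rps6ka2, the kinase RSK3, had a difference of −0.61 and the Hippo kinase Stk3 of −0.33, both lower without overlap and both picked after their values were seen.

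Camk2d, a calcium and calmodulin dependent kinase, had 51.5, 60.2 and 40.6 TPM in SFPQ_KO libraries and 54.7, 64.2 and 70.3 TPM in Cont libraries. Its groups overlapped, and the difference of −0.32 (SE 0.16) became −0.17 without SFPQ_KO 3 and −0.45 without SFPQ_KO 2. Rptor, the mTOR complex 1 subunit raptor, had 56.5, 65.6 and 50.2 TPM in SFPQ_KO libraries and 48.5, 61.6 and 52.4 TPM in Cont libraries, a difference of 0.08 (SE 0.13). Rptor ranged from −0.02 without SFPQ_KO 2 to 0.18 without Cont 2. Grk5 (chr19:60889560-61095968, plus strand), a kinase of activated G protein-coupled receptors, was higher in every SFPQ_KO library and overlaps Zfp950. It had 5.59, 2.95 and 2.97 TPM in SFPQ_KO libraries and 1.96, 1.56 and 2.11 TPM in Cont libraries. SFPQ_KO 1 was well above the other libraries, and the difference of 0.71 (SE 0.23) became 0.46 without it.

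Regulators of small GTPases mostly had overlapping groups. Of 25 members 2 were lower and none higher, with a median of −0.06, which became 0.01 and 0.02 under the other scalings. The GTPase median ran from −0.20 without SFPQ_KO 1 to 0.07 without Cont 2, with 2 to 4 lower members. On the narrower list 0 of 19 were lower, with a median of −0.05. Rap1gap2, an activator of Rap1 GTP hydrolysis, had 117, 88.1 and 74.5 TPM in SFPQ_KO libraries and 63.9, 148 and 84.1 TPM in Cont libraries. Arhgap10, a GTPase-activating protein, had 64.7, 68.7 and 62.0 TPM in SFPQ_KO libraries and 45.7, 70.0 and 62.6 TPM in Cont libraries. Tbc1d22a, a TBC-domain protein, had 36.6, 37.1 and 44.96 TPM in SFPQ_KO libraries and 38.9, 37.3 and 36.1 TPM in Cont libraries. Cont 2 was the top library in the first gene, and the SFPQ_KO and Cont ranges crossed in all 3. The differences were −0.01 (SE 0.31) for Rap1gap2, 0.15 (SE 0.16) for Arhgap10 and 0.07 (SE 0.10) for Tbc1d22a. Rap1gap2 ranged from −0.28 without Cont 1 to 0.32 without Cont 2 and Arhgap10 ranged from −0.02 without Cont 1 to 0.28 without Cont 2. Tbc1d22a ranged from −0.02 without SFPQ_KO 3 to 0.12 without SFPQ_KO 1. The 2 lower genes were Ripor2 at −0.53 and Rgl1, a Ral exchange factor, at −0.22.

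Receptors, channels, transporters and adhesion molecules of the membrane had no lower member among 12, against 15.3% of all genes tested. Their median was 0.10, and 0.16 under both other scalings. With so few members a count of 0 is not set apart from that share. The receptor median ran from −0.07 without SFPQ_KO 1 to 0.21 without Cont 2, with 0 to 2 lower members. App (chr16:84952666-85175255, minus strand), the amyloid precursor protein, was the most abundant member of all. It had 367, 391.6 and 341 TPM in SFPQ_KO libraries and 245, 339 and 419 TPM in Cont libraries. Its groups overlapped, with the lowest and the highest library both from Cont, and the difference was 0.17 (SE 0.19). App ranged from −0.04 without Cont 1 to 0.35 without Cont 3. Grik3 (chr4:125490259-125714173, plus strand), a kainate receptor subunit of neurons, was the higher member with the largest difference. It had 2.42, 1.58 and 1.02 TPM in SFPQ_KO libraries and 0.144, 1.02 and 0.677 TPM in Cont libraries. SFPQ_KO 3 and Cont 2 were almost equal, and the difference was 0.73 (SE 0.28) at a level near 1 TPM, or 0.51 without Cont 1. In Cont only Cont 2 met the TPM limit, so Grik3 was a member only through its SFPQ_KO values. Alcam and Nrcam, adhesion molecules of the immunoglobulin family picked after their values were seen, had differences of 0.46 and 0.40 with overlapping groups. Alcam ranged from 0.02 without SFPQ_KO 1 to 0.92 without SFPQ_KO 2 and Nrcam from 0.15 without SFPQ_KO 3 to 0.75 without Cont 2.

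Matrix and secreted proteins had 2 lower members of 14, none higher, and a median of −0.11. The heparan sulfate enzymes Hs6st2 and Ext1 were counted here, while the Golgi enzymes St3gal3 and Fut8 were counted with metabolism. The median of this matrix role was −0.06 and −0.05 under the other scalings, with 1 lower and 1 higher member each. The matrix median ran from −0.40 without Cont 1 to 0.04 without Cont 2, with 2 to 6 lower members. Without SFPQ_KO 1 it was −0.27 with 6 lower members, while the share of lower genes over all genes rose from 15.3% to 21.4%. On a list that joined matrix genes with channels and receptors, 2 of 10 members were lower, with a median of −0.06. Hs6st2 (chrX:51386637-51681705, minus strand), a heparan sulfate 6-O-sulfotransferase, had 20.3, 21.2 and 19.5 TPM in SFPQ_KO libraries and 39.5, 38.2 and 30.7 TPM in Cont libraries. Its groups stood apart, with a mean 1.78-fold lower in SFPQ_KO and a log2(TPM + 1) difference of −0.79 (SE 0.12). Ext1, a polymerase of the heparan sulfate chain, had 25.6, 19.5 and 21.0 TPM in SFPQ_KO libraries and 14.9, 27.2 and 15.4 TPM in Cont libraries. Fbn1, the microfibril protein fibrillin-1, had 16.7, 13.2 and 10.2 TPM in SFPQ_KO libraries and 8.79, 23.3 and 12.9 TPM in Cont libraries. Both overlapped between groups, with differences of 0.23 (SE 0.24) for Ext1 and −0.08 (SE 0.34) for Fbn1. Ext1 ranged from 0.09 without Cont 1 to 0.50 without Cont 2 and Fbn1 ranged from −0.38 without Cont 1 to 0.28 without Cont 2. The other lower member was the secreted guidance protein Sema3d at −0.63, or −0.39 without SFPQ_KO 2, whose relative Sema3e had −0.35 with overlapping groups.

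Membrane and vesicle traffic had 2 lower members of 11, with a median of −0.06 that became 0.01 and 0.04 under the other scalings. Those scalings left 1 lower and 1 higher member each. The traffic median ran from −0.12 without Cont 1 to 0.03 without Cont 2, with 2 to 3 lower members. The narrower list had 1 lower of 7, with a median of −0.06. Dysf, dysferlin, a protein of membrane repair in muscle, had 98.6, 68.2 and 80.0 TPM in SFPQ_KO libraries and 81.5, 117 and 76.7 TPM in Cont libraries. Ap3b1, a subunit of the AP-3 adaptor of endosomes, had 24.2, 24.2 and 27.9 TPM in SFPQ_KO libraries and 20.6, 24.98 and 20.5 TPM in Cont libraries. Cont 2 was highest for Dysf and the groups of both genes overlapped, with differences of −0.15 (SE 0.20) for Dysf and 0.20 (SE 0.11) for Ap3b1. Dysf ranged from −0.29 without SFPQ_KO 1 to 0.04 without Cont 2 and Ap3b1 ranged from 0.13 without SFPQ_KO 3 to 0.29 without Cont 2. Tmem135, a membrane protein linked to mitochondria and peroxisomes, had 14.9, 14.5 and 15.0 TPM in SFPQ_KO libraries and 22.002, 17.8 and 17.4 TPM in Cont libraries. It was lower without overlap, at −0.34 (SE 0.11), and overlaps Fzd4.

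DNA repair and replication had 4 lower members of 7, none higher, with a median of −0.27. Quantile normalization left 1 lower and 1 higher, and median-of-ratios scaling 3 and 1, with medians of −0.17 and −0.20. The repair median ran from −0.30 without SFPQ_KO 3 to −0.23 without Cont 2, with 4 to 6 lower members. On the narrower list, which also holds cell cycle genes, 2 of 6 were lower, with a median of −0.24. The 4 lower genes were Mcph1 (microcephalin), Prim2 (a primase subunit), Xrcc4 and Prkdc (both of non-homologous end joining), at differences from −0.42 for Mcph1, or −0.28 without SFPQ_KO 1, to −0.25 for Prkdc. Mgmt, the repair enzyme that removes alkyl groups from guanine, had 15.5, 24.3 and 16.4 TPM in SFPQ_KO libraries and 34.98, 18.3 and 27.3 TPM in Cont libraries. The groups overlapped, and the difference of −0.48 (SE 0.26) was −0.27 without Cont 1 and −0.72 without Cont 2. Nsmce2, the SUMO ligase of the SMC5/6 complex, had 11.5, 11.2 and 15.1 TPM in SFPQ_KO libraries and 10.6, 12.2 and 10.6 TPM in Cont libraries, a difference of 0.15 (SE 0.14). Nsmce2 ranged from 0.02 without SFPQ_KO 3 to 0.23 without SFPQ_KO 2.

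Another 25 members had roles outside these groups, and 3 of them were lower: Mipol1, Prune2 and Cped1. Mipol1 (chr12:57230425-57457241, plus strand) had 3.41, 3.76 and 2.41 TPM in SFPQ_KO libraries and 6.36, 6.01 and 5.98 TPM in Cont libraries. Its groups stood apart, with a difference of −0.78 (SE 0.15), and it overlaps Prps1l3. The palmitoyltransferase Zdhhc14 had the most positive difference of the overlapping members, 0.57, and was picked after its value was seen.

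**Figure D5:**
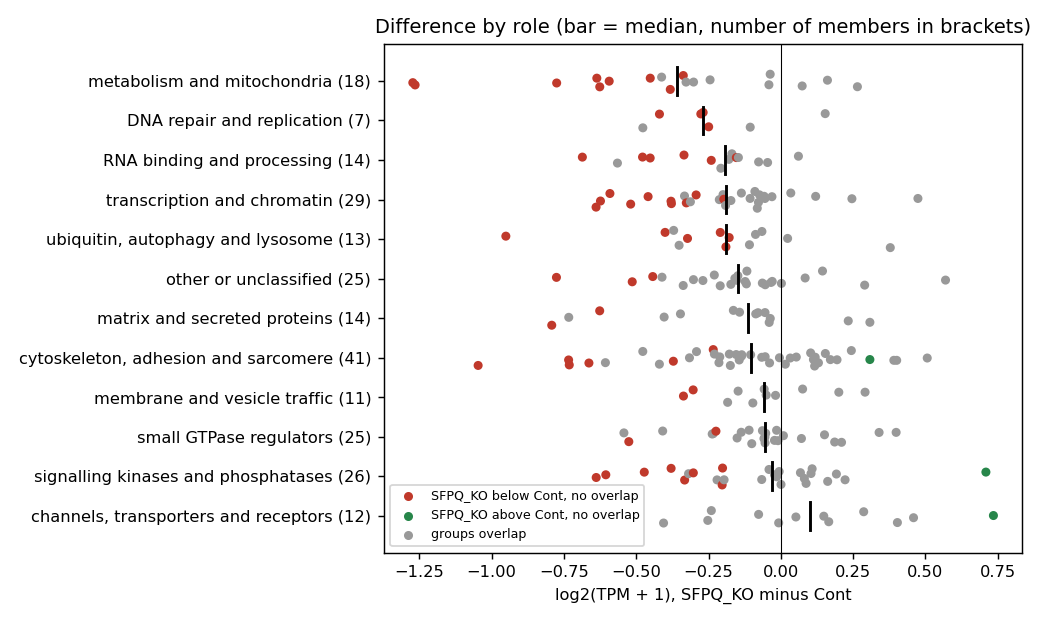
Log2(TPM + 1) difference, SFPQ_KO minus Cont, of the 235 members by role, with the number of members in brackets, a bar at each median and lower members in red, higher in green and overlapping in grey. Medians run from −0.36 for metabolism and mitochondria to 0.10 for channels, transporters and receptors, and every role holds overlapping members.

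Mir100hg, 1 of the 2 long noncoding RNA genes, is the host gene of the microRNAs miR-100, let-7a-2 and miR-125b-1. The host transcript had 23.5, 14.6 and 15.1 TPM in SFPQ_KO libraries and 11.3, 14.9 and 16.2 TPM in Cont libraries. SFPQ_KO 1 was the highest library and the groups overlapped, with a difference of 0.29 (SE 0.21). Mir100hg ranged from 0.08 without SFPQ_KO 1 to 0.40 without SFPQ_KO 2. The 5′ mature microRNAs of miR-100 and miR-125b are shown as its best known products, and they were not measured. Their seeds, bases 2 to 8, are in capitals and differ from each other. Sequences are from RefSeq on GRCm38.p6.
mmu-miR-100-5p: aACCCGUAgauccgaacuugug
mmu-miR-125b-5p: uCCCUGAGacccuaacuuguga

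Annotated structure was compared between lower members and the rest as a description, with no test. The median counted transcript of lower members had 14 exons and 4460 spliced bases, against 18 exons and 5527 bases in the 165 other members found in GENCODE. The longest intron had a median of 87292 bases in lower members and 74624 bases in the rest, within overlapping ranges. The median span was 239.6 kb in lower members and 234.5 kb in the rest. The level had a median of 15.8 TPM in lower members and 9.10 TPM in the rest. By level, 16 of 84 members under 5 TPM were lower, 18 of 82 at 5 to 20 TPM and 24 of 69 at 20 TPM or more. The shares over all genes tested at those levels were 16.1%, 17.0% and 13.7%. Of the 38 members that overlap another protein-coding gene, 12 were lower, against 46 of the 197 other members (23.4%) and 15.3% of all genes tested. The overlap was on the same strand in 6 of the 38, and 1 of these 6 was lower.

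Among the 174 overlapping members some libraries were more often at the extremes than others. Cont 2 was the highest Cont library in 120 of them and Cont 1 the lowest in 109. SFPQ_KO 1 was the highest SFPQ_KO library in 92. Without Cont 2, 74 members were lower and 21 higher, against 23.5% and 12.3% of all genes. Without both SFPQ_KO 1 and Cont 2 the counts were 87 and 24, against 29.6% and 14.9%. Fewer libraries make a lack of overlap easier to reach, so these counts are read only beside their own backgrounds.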

How the data were processed

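Differentiated primary myoblast cultures were profiled by polyA mRNA-seq in 6 libraries, 3 SFPQ_KO and 3 Cont, grouped by their titles. No label says that each library came from its own mouse or culture, so the p-values reflect the spread among these 6 samples, part of which may be technical. The authors deposited TPM per RefSeq transcript accession, 34671 in each library, summing to 1000000. The tool and the build named, per the submitters' processing notes, are the aligner STAR 2.4.1d and mm10. Neither the counting tool nor the annotation release nor the strand setting is given in the sources used here, and overlapping genes are therefore uncertain. TPM keeps no read depth, so depth is unknown and no counting interval is given.

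RefSeq annotation of GRCm38.p6, which is the mm10 assembly, gave gene names to 30822 accessions, and GENCODE to 103. The other 3746 (10.8%), with 1.19% to 1.27% of TPM, kept their accession. TPM was summed by gene, giving 34656 genes. The same annotation gave spans and 1-based coordinates (11954 of the genes tested). The 12461 genes that reached a TPM of 1 in 3 or more libraries were fitted with limma 3.58.1 (R 4.3.3) on the log2(TPM + 1) scale, with the intensity trend, no block, a 2-sided moderated test and Benjamini-Hochberg adjustment at 0.05 over all of them. Differences are SFPQ_KO minus Cont on that scale, which understates those of low genes. Data were also simulated with the spread of these libraries for this comparison over 12461 genes. The test called 61% of genes given a log2 change of 1, 91% of genes given 2, and 8 unchanged genes. The simulated noise was independent between libraries, without the shared departure of SFPQ_KO 1 and Cont 2. In the main fit of the real libraries no gene passed, Sfpq at −1.57 included, so these shares do not give the sensitivity there. Joining and plots used Python 3.11.15, pandas 2.3.3 and matplotlib 3.10.9.

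The members, the role lists and the rule for named genes were chosen with earlier results of these data known. The rule names, among lower members, the 14 with the largest differences and the 8 with the highest TPM, then the higher members, the 10 overlapping members with the highest TPM, the 3 members of each list with the highest TPM, and the genes at the span limits. It gave 52 members beside the genes at the limits. Genes named beyond it, to complete a small count or mark the end of a range, were chosen after their values were seen. Alternatives covered pseudocounts of 0.1 and 5, filters, 2 scalings, limma without trend, a replicate block, each library left out, the genes left out by name, overlapping genes and an adjusted p under 0.1. Leaving out SFPQ_KO 1 and Cont 2 together, and keeping only transcripts that span 200 kb or more in GENCODE, were added after seeing the data.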

Additional observations from a re-analysis of the deposited data

How the results depend on the processing

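No member passed an adjusted p of 0.05 under any alternative, and 1 (Mlip, lower) passed 0.1. Counts of higher members were the least stable. Members above Cont without overlap numbered 3, and 1 at a mean TPM of at least 5, 10 after median-of-ratios scaling, 9 after quantile normalization, 1 without genes that overlap another protein-coding gene, and 24 without SFPQ_KO 1 and Cont 2. Those higher at an unadjusted p under 0.05 numbered 3, and 0, 7, 6, 1 and 7 under the same alternatives. With each library left out in turn the counts ran from 3 to 21 and from 1 to 12, against 5.64% to 12.3% and 1.73% to 5.01% of all genes. For lower members they ran from 62 to 80 without overlap, against 18.1% to 25.2% of all genes. At an unadjusted p under 0.05 they ran from 35 to 50, against 5.48% to 10.4%. The median of members ran from −0.19 to −0.04 and that of all genes from −0.10 to −0.04. Fewer libraries make a lack of overlap easier, and the cause of the other moves was not tested. The replicate numbers did not pair the libraries, with same-number correlations of deviations of −0.26, −0.25 and 0.05. With the replicate block 40 members were lower and 2 higher at an unadjusted p under 0.05, against 6.70% and 1.80% of all genes, and 0 passed adjustment. None of the 25 named lower and 3 named higher members changed sign under the alternatives. That was fixed by how these classes were drawn for all alternatives but the 2 scalings, which alone could have changed it. Of 24 named overlapping members 14 changed sign, which their class allows. Depth is unknown, so counting error at low TPM could not be set apart from the spread between libraries.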
